A study of Mus musculus with 2 samples.

Results

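The genes described here build and run the contractile apparatus of skeletal muscle: the thin and thick filaments, the Z disc, the calcium stores and the enzymes that supply the energy. A gene was included where a probe set, a group of short oligonucleotides read as 1 value, carried its symbol and no other in the platform annotation. Of 52 listed genes, 48 had such a probe set, with 78 probe sets in all, out of 12393 genes on the array. Neb, Mybpc1, Mybpc2 and Ampd1 had none and are not analysed here. The rule goes by what the proteins do and uses no measured value, though the list was drawn up with earlier results of these data known.

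The samples were 1 allograft, tissue moved between animals of one species, and 1 autograft, tissue moved within one animal, both from c57Bl/6 femur and each read as total RNA on 1 array. The labels name the material as murine bone and give no age, sex, treatment or time after grafting. For the allograft they do not say whether c57Bl/6 mice were the donors or the recipients. How many animals were pooled is not given for either sample. With 1 array for each graft type no difference has a replicate check and no test was possible, so precision is limited by there being only 2 arrays. A gene with several probe sets is given by the brightest, the one whose mean over both arrays is highest. Values below 175.2, the median of all intensities other than controls, were set to that floor before log2 was taken, and every log2 ratio is allograft over autograft.

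Muscle fibres shorten when myosin of the thick filament pulls on actin of the thin filament. Calcium that leaves the sarcoplasmic reticulum through the ryanodine receptor binds troponin C and moves tropomyosin away from the myosin binding sites, and SERCA pumps return the calcium. Fast and slow fibres use different genes for many of these proteins, and fast fibres rely more on glycolysis and on stores of creatine phosphate. In the limb, muscle attaches to the outer surface of the long bones.

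Transcripts of muscle were read at high intensity on both arrays. Jph2, a junctophilin that holds calcium stores close to the cell membrane, was below the floor on both (156 in allograft, 114 in autograft). The other 47 genes were above it on both arrays, between 411 and 9226 in the allograft sample and between 458 and 7707 in the autograft sample. The markers of heart muscle were mostly below the floor. Of 11 genes on that list 9 were below the floor on both arrays. Among them were Myh6, a heavy chain of cardiac myosin (4.2 in allograft, 41.1 in autograft), and Tnni3, cardiac troponin I (10 in allograft, 15.1 in autograft). The exceptions were Actc1 (7045 in allograft, 6791 in autograft) and Tnnt2 (1469 in allograft, 1333 in autograft), which developing skeletal muscle also uses. Myh11, the myosin of smooth muscle, was below the floor as well (78.5 in allograft, 137 in autograft). Of the 14 genes of the smooth muscle and pericyte list on the array, however, 9 exceeded the floor on 1 or both arrays. Among them was Acta2, an actin of smooth muscle (5627 in allograft, 4724 in autograft). In RNA from whole tissue, fewer muscle fibres and less RNA for each fibre cannot be told apart.

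**Figure D1:**
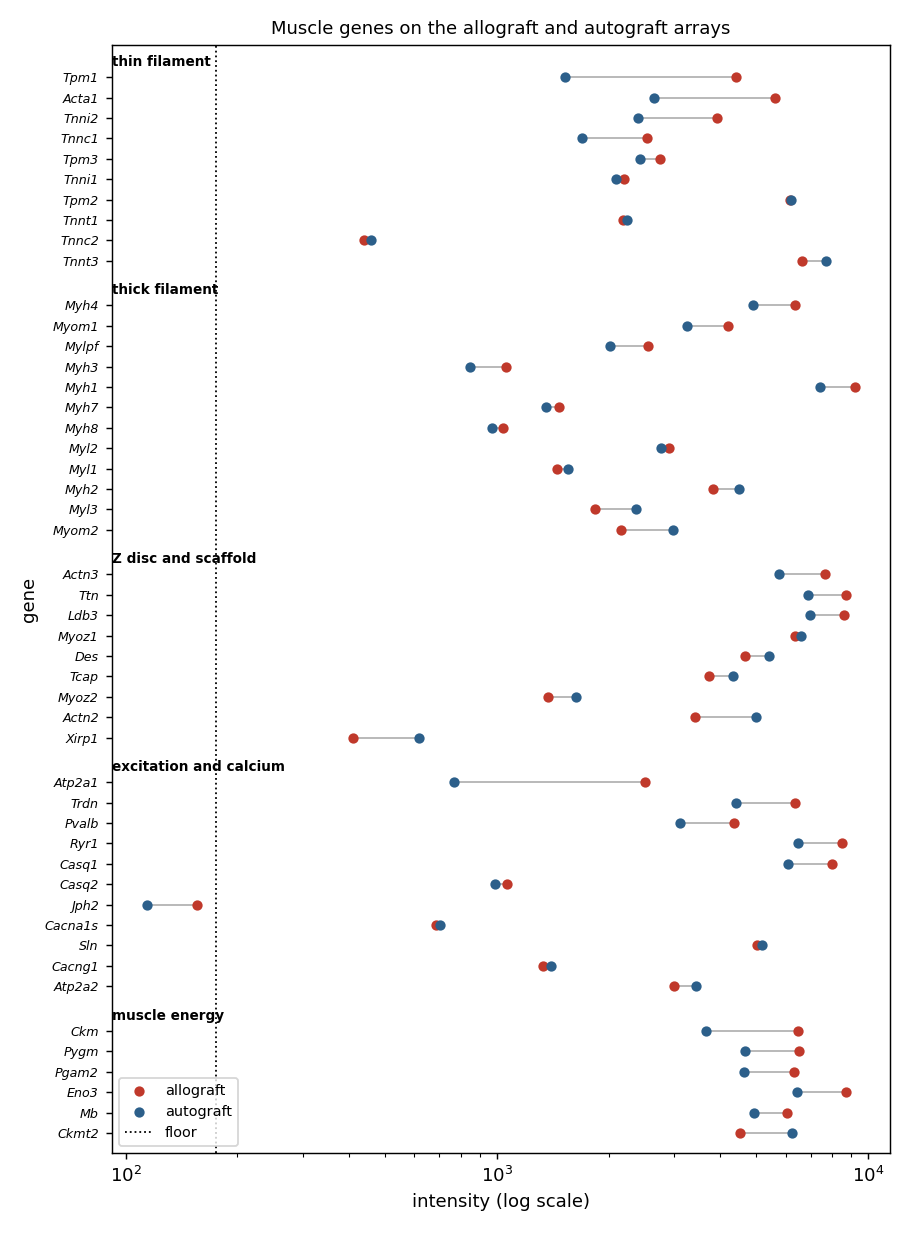
Intensity (log scale) of the brightest probe set of each muscle gene in the allograft sample and in the autograft sample, grouped by role; the dotted line is the floor of 175.2. Atp2a1, Tpm1 and Acta1 have the widest gaps with the allograft value on the right, while Jph2 alone lies below the floor on both arrays.

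By median the muscle genes read a little higher in the allograft sample, and 3 of them were at least 2-fold higher. The median log2 ratio of the 47 genes was 0.11, against -0.076 over all 7830 genes that exceeded the floor on 1 or both arrays. A ratio above 0 was found for 28 of the 47, or 59.6%, against 40.4% of all genes. The muscle genes were brighter, with a median mean intensity of 3739 against 567 over all genes, and ratios rose with brightness. At a mean intensity of 4000 or more, 60.9% of 23 muscle genes and 75.9% of 444 other genes were above 0. A wider list of muscle genes had a median of -0.082. The 3 genes at 2-fold or more make 6.38% of the 47, against 0.868% of all genes (68 of 7830). No muscle gene was 2-fold lower, against 0.754% of all genes (59 of 7830). Of the 2-fold differences over all genes 53.5% were higher in the allograft sample, a share of 67.0% after quantile normalization, 66.9% with each array divided by its 75th percentile and 72.3% once the trend of the ratio with brightness was removed. The ratios of the muscle genes ran from -0.59 to 1.71, and 40 of the 47 were within 1.5-fold either way. At least 1.5-fold higher were 6 of the 47, against 4% of all genes (313 of 7830), and 1 was at least 1.5-fold lower, against 6.56% (514 of 7830).

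The gene with the highest ratio was Atp2a1, which encodes SERCA1, the calcium pump of fast fibres. Its only probe set read 2501 in the allograft sample and 767 in the autograft sample, a log2 ratio of 1.71 or 3.26-fold, the 12th highest ratio of the 7830 genes. Tpm1, alpha tropomyosin, read 4399 in the allograft sample and 1530.4 in the autograft sample in its brightest probe set (1.52), but its second probe set read 1787 in the allograft sample and 2392 in the autograft sample (-0.42), on the other side of 0, and the third was below the floor on both arrays. Tpm1 is also made in cells outside muscle, as several transcripts. Acta1, the actin of the skeletal muscle thin filament, read 5615 in the allograft sample and 2658 in the autograft sample in its only probe set (1.08, 2.11-fold). After quantile normalization Acta1 stood at 0.95 and with the brightness trend removed at 0.98, both just under 2-fold. The next value below the 2-fold line was that of Ckm, the creatine kinase of muscle cytoplasm, at 0.82 (6481 in allograft, 3669 in autograft).

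At the other end, Xirp1, an actin-binding repeat protein of the muscle attachment sites, was lowest at -0.59 (411 in allograft, 618 in autograft). Actn2, the alpha actinin found in all fibres, which anchors actin at the Z disc, read 3414 in the allograft sample and 4986 in the autograft sample (-0.55). Myom2, a protein of the M band, stood at -0.46 (2160 in allograft, 2981 in autograft), and Ckmt2, the creatine kinase of muscle mitochondria, at -0.46 (4524 in allograft, 6239 in autograft). The place of Xirp1 as the lowest depended on the processing: with the floor at the 75th percentile it stood at -0.14, and after quantile normalization (-0.52) and with the brightness trend removed (-0.49) it lay above Actn2 (-0.73 and -0.66) and Ckmt2 (-0.70 and -0.63). These 4 were the muscle genes whose ratio lay further below 0 than 0.44, the SD of the difference in ratio between the brightest probe set of a gene and its second (1925 genes whose 2 brightest probe sets exceeded the floor on each array). On the other side 11 muscle genes lay beyond that SD. Over all genes 7.64% lay above it and 13.7% as far below 0. Among the muscle genes themselves the SD was 0.64 over the 11 with 2 such probe sets and 0.27 over the 10 other than Tpm1. Beyond 0.64 lay 5 muscle genes above 0 (Atp2a1, Tpm1, Acta1, Ckm and Tnni2) and 0 below. The share of all genes beyond 0.64 was not counted. At 1.5-fold, a lower line, it was 4% above and 6.56% below. Each of these SDs is that of a difference between 2 ratios and is not the error of a single ratio. It measures the disagreement of oligonucleotides on the same pair of arrays and says nothing on the spread between animals.

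The promoters of the genes at both ends, as far as the RefSeq table held a single start for them, are printed to show the letters upstream of the genes with the 4 highest ratios and of 2 genes with low ones. Each run has 300 bases of assembly GRCm38.p6, from 250 before the annotated start to 50 after it, 5′ to 3′ on the strand of the gene. Capitals mark matches on either strand to the E-box CANNTG, which MyoD and related factors bind, to TATAAA, to the CArG box bound by serum response factor and to the MEF2 motif. The genes with high ratios are Atp2a1 (chr7:126463024-126463323, minus strand), Tpm1 (chr9:67049164-67049463, minus strand), Acta1 (chr8:123894726-123895025, minus strand) and Ckm (chr7:19410844-19411143, plus strand).
Atp2a1: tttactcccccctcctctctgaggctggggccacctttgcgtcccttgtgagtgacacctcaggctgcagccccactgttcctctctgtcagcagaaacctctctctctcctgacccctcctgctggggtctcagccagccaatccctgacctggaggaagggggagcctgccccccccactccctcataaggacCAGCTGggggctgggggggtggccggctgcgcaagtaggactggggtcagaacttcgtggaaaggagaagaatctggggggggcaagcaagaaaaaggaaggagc
Tpm1: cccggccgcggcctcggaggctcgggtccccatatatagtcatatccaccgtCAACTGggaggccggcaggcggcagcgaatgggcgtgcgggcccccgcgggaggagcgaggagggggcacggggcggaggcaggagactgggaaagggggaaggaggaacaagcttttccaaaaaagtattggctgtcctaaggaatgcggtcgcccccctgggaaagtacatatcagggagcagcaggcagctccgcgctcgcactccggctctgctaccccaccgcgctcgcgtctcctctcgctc
Acta1: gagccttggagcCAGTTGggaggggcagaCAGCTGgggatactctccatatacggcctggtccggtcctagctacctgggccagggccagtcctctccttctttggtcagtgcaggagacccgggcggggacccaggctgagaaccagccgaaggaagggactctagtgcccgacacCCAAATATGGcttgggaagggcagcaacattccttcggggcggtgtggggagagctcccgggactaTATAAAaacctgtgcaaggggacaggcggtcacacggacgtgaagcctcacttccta
Ckm: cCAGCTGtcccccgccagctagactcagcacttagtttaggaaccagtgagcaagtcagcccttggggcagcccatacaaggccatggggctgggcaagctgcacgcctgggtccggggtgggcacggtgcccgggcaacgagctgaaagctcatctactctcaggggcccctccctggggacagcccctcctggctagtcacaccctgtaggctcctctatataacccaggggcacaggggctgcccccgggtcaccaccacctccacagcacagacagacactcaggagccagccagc
The genes with low ratios are Actn2 (chr13:12340683-12340982, minus strand) and Ckmt2 (chr13:91876836-91877135, minus strand).
Actn2: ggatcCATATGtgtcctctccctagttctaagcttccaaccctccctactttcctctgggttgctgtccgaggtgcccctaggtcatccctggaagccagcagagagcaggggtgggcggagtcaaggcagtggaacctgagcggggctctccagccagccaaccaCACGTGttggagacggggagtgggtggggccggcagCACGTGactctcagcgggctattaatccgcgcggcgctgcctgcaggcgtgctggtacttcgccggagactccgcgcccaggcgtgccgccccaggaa
Ckmt2: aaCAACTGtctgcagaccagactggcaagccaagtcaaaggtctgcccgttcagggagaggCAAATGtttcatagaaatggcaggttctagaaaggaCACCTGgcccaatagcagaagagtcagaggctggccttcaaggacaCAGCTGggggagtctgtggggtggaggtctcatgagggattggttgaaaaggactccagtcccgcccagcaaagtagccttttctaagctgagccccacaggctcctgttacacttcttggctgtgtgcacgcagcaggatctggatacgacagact

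The E-box letters were present at both ends: once in Atp2a1, Tpm1 and Ckm, 2 times in Acta1, 3 times in Actn2 and 4 times in Ckmt2. Of these 6 windows, Acta1 alone held a CArG box (73 bases before the start) and a TATAAA, and none held a MEF2 motif. The table had promoters for 39 of the 52 listed genes. An E-box was found in 35 of the 39 (89.7%), against 20265 of the 27025 genes in the table, and TATAAA in 9 (23.1%), against 15.7%. The CArG box was found in 5 (12.8%), against 1.81%, and the MEF2 motif in 8 (20.5%), against 3.70%. A gene was counted where any of its windows held the letters, and motifs may overlap. The 5 genes with a CArG box were Acta1, Ldb3, Myh4, Myl3 and Myom1, with ratios from -0.37 to 1.08. The 8 with a MEF2 motif were Casq2, Myh1, Myh4, Myh8, Myoz2, Pgam2, Pvalb and Ttn, with ratios from -0.26 to 0.48. Genes with a motif had a higher median ratio than those without it for MEF2 and the CArG box, and a lower one for TATAAA and the E-box. For the MEF2 motif it was 0.33 with (8 genes) and 0.24 without (28), for the CArG box 0.37 with (5) and 0.19 without (31). For TATAAA it was 0.10 with (9) and 0.31 without (27), and for the E-box 0.24 with (32) and 0.31 without (4). A match is a description of letters and not a shown binding site.

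In the thin filament, 6 of 10 genes had a ratio above 0 (60%, against 40.4% of all genes), with a median of 0.13. That median was -0.18 without probe sets whose names carry the mark _a, _s or _x. By median the 10 genes had a mean intensity of 2777.5. Of other genes between 2000 and 4000, 49.7% were above 0. Besides Acta1 and Tpm1, Tnni2, the inhibitory troponin of fast fibres, read 3908 in the allograft sample and 2400.4 in the autograft sample (0.70), and its further probe sets stood at 0.57 and 0.16. Tnnc1, the calcium-binding troponin of slow and cardiac muscle, read 2539.8 in the allograft sample and 1691 in the autograft sample (0.59). These were the only other thin filament genes at 1.5-fold or more. Tnnt3, the fast troponin T that ties the complex to tropomyosin, was lowest at -0.22 (6619 in allograft, 7707 in autograft). Tnnt1, the slow troponin T, stood at -0.040 (2181 in allograft, 2242 in autograft), Tnni1, the slow troponin I, at 0.070 (2198 in allograft, 2095 in autograft) and Tnnc2, the fast troponin C, at -0.057 (440 in allograft, 458 in autograft). The troponin genes thus had ratios on both sides of 0. Tropomyosin probe sets disagreed. Those of Tpm2, beta tropomyosin, stood at -0.0047, 0.44, 0.30 and -0.30 from the brightest to the dimmest, and those of Tpm3, the slow tropomyosin, at 0.19, -0.074, -0.55 and -0.29, with one more below the floor.

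In the thick filament, 8 of 12 genes had a ratio above 0 (66.7%, against 40.4% of all genes). The median was 0.11, and all 12 were within 1.5-fold either way. Their median mean intensity was 2430, and of other genes between 2000 and 4000, 49.7% were above 0. Myh4, the chain of type IIb fibres, read 6372 in the allograft sample and 4894 in the autograft sample (0.38), and Myh1, that of type IIx fibres, read 9226 in the allograft sample and 7419 in the autograft sample (0.31, and 0.47 in its next probe set). Myh2, the chain of the more oxidative type IIa fibres, had the opposite sign at -0.24 (3814 in allograft, 4502 in autograft). Myh7, the slow heavy chain, stood at 0.11 (1469 in allograft, 1357 in autograft). A probe set that matches both Myh7 and the cardiac Myh6 read 405 in the allograft sample and 547 in the autograft sample, and another was below the floor on both arrays. Myh3, the embryonic chain that regenerating fibres make, stood at 0.32 (1061 in allograft, 847 in autograft), and Myh8, the perinatal chain, at 0.10 (1041 in allograft, 968 in autograft). Both developmental chains were thus read on both arrays, with ratios inside the range of the adult chains. Myosin genes are close in sequence, and how far their probe sets read each other was not tested.

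Among the light chains, which sit on the neck of myosin, Mylpf, the fast regulatory chain, had the highest ratio at 0.34 (2557 in allograft, 2021 in autograft). Myl2, the regulatory chain of slow and ventricular muscle, stood at 0.079 (2918 in allograft, 2763 in autograft), and Myl1, the fast essential chain, at -0.096 (1453 in allograft, 1553 in autograft). Myl3, the slow essential chain, was lowest at -0.37 (1841 in allograft, 2372 in autograft), with further probe sets at -0.58 and 0.076. Of the M band proteins that link thick filaments, Myom1 stood at 0.37 (4205 in allograft, 3249 in autograft), on the other side of 0 from Myom2.

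In the Z disc and the scaffold around it, 6 of 9 genes had a ratio below 0, with a median of -0.21. Above 0 were 33.3%, against 40.4% of all genes, whose median was -0.076. By median the 9 genes were bright, with a mean intensity of 5048. Other genes at 4000 or more had a median ratio of 0.21, and 75.9% of them were above 0. With the brightness trend removed the median ratio of the Z disc genes was -0.26. The Z disc was the only role with a median below 0. Actn3, the alpha actinin of fast glycolytic fibres, read 7649 in the allograft sample and 5749 in the autograft sample (0.41), so that it lay on the other side of 0 from Actn2. Ttn, the elastic protein that spans from Z disc to M band, stood at 0.35 (8733 in allograft, 6873 in autograft), with its second probe set at 0.42. Ldb3, a Z disc adaptor, stood at 0.31 (8609 in allograft, 6968 in autograft), with further probe sets at -0.096 and 0.067. These 3 bright genes were nearer 0 after quantile normalization, with Actn3 at 0.13, Ttn at 0.032 and Ldb3 at -0.010, and with the brightness trend removed, at 0.19, 0.092 and 0.052. The remaining values were small. Des, the intermediate filament desmin, stood at -0.21 (4675 in allograft, 5422 in autograft), Tcap, which caps titin, at -0.22 (3727 in allograft, 4326 in autograft), Myoz2, the calcineurin-binding protein of slow and cardiac muscle, at -0.26 (1372 in allograft, 1637 in autograft) and its fast relative Myoz1 at -0.048 (6364 in allograft, 6579 in autograft; 0.25 in the second probe set).

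**Figure D2:**
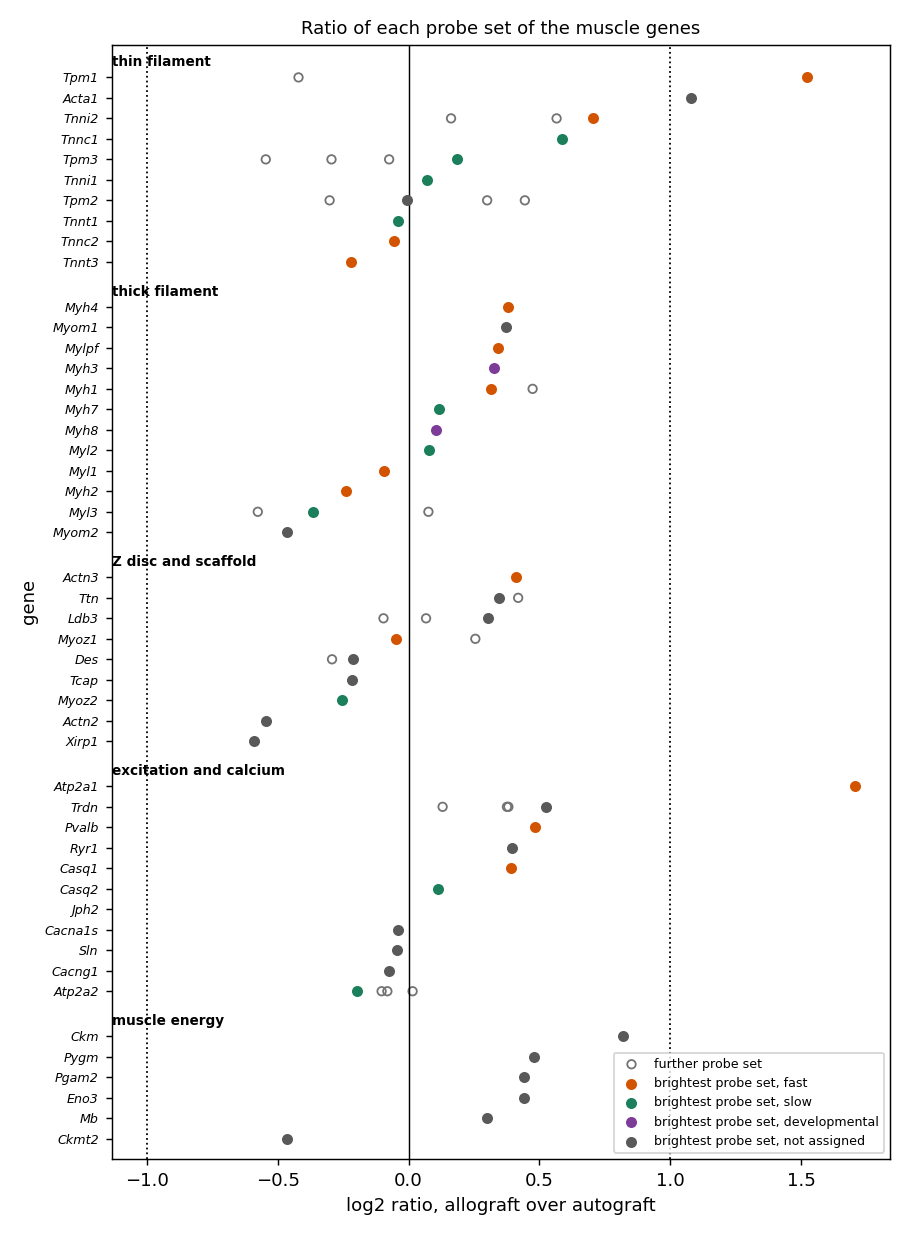
Log2 ratio of allograft over autograft for each probe set that exceeded the floor on 1 or both arrays, with genes grouped by role, filled points for the brightest probe set coloured by fibre type and open points for further ones; dotted lines mark 2-fold. Atp2a1, Tpm1 and Acta1 lie beyond the right dotted line, and the open point of Tpm1 lies at -0.42.

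Of the genes of excitation and calcium handling, 6 of 10 above the floor had a ratio above 0 (60%, against 40.4% of all genes). The median of the 10 was 0.25 (0.081 after quantile normalization and 0.16 with the brightness trend removed). Their median mean intensity was 3480, and of other genes between 2000 and 4000, 49.7% were above 0. The pumps stood apart: Atp2a1 at 1.71 as given above, and Atp2a2, the SERCA2 pump of slow fibres, heart and many other cells, at -0.20 (3003 in allograft, 3441 in autograft). The further probe sets of Atp2a2 stood at -0.10, 0.015 and -0.081, so all 4 lay well below Atp2a1. The genes of the calcium store were closer together. Ryr1, the release channel, read 8518 in the allograft sample and 6479 in the autograft sample (0.39). Trdn, which anchors calsequestrin to that channel, stood at 0.53 (6346 in allograft, 4406 in autograft), with 3 further probe sets between 0.13 and 0.38 and 2 below the floor. Casq1, the calcium buffer of fast fibres, stood at 0.39 (7991 in allograft, 6094 in autograft) and Casq2, that of slow fibres and heart, at 0.11 (1068 in allograft, 987 in autograft). After quantile normalization Ryr1 stood at 0.077, Casq1 at 0.085 and Trdn at 0.31, and with the brightness trend removed at 0.15, 0.16 and 0.36. Pvalb, the cytosolic calcium buffer of fast fibres in the mouse, read 4361 in the allograft sample and 3117 in the autograft sample (0.48).

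The voltage sensor of the cell membrane differed little between the arrays. Cacna1s, its pore subunit, stood at -0.041 (685 in allograft, 704 in autograft) and Cacng1, its gamma subunit, at -0.073 (1332 in allograft, 1401 in autograft). Sln, sarcolipin, a small inhibitor of SERCA pumps, stood at -0.046 (5022 in allograft, 5185 in autograft), with a second probe set below the floor on both arrays.

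Of the energy genes, 5 of 6 had a ratio above 0 (83.3%, against 40.4% of all genes), with a median of 0.44, the highest of the roles. These genes are bright, with a median mean intensity of 5481. Of other genes at 4000 or more 75.9% were above 0. The energy gene below 0 was Ckmt2 at -0.46, while its cytoplasmic counterpart Ckm stood at 0.82 (6481 in allograft, 3669 in autograft, 1.77-fold). Pygm, the enzyme that releases glucose units from glycogen, stood at 0.48 (6514 in allograft, 4672 in autograft), and the glycolytic enzymes Pgam2 and Eno3, in their muscle forms, at 0.44 (6302 in allograft, 4639.9 in autograft) and 0.44 (8711 in allograft, 6421 in autograft). Mb, the oxygen store myoglobin, stood at 0.30 (6056 in allograft, 4925 in autograft). All but Ckm lay within 1.5-fold. The median of the energy genes was 0.17 after quantile normalization, where Eno3 stood at 0.12, Mb at 0.032, Pgam2 at 0.21 and Pygm at 0.24, and 0.23 with the brightness trend removed.

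Fast isoforms had a somewhat higher median ratio than slow ones. The 14 fast genes measured had a median ratio of 0.36, with 9 above 0 (64.3%). The 10 slow genes had one of 0.074, with 6 above 0 (60%), a difference of medians of 0.29. Over all genes 40.4% were above 0. The median mean intensity was 3949 for the fast genes and 2131 for the slow ones. Of other genes between 2000 and 4000, 49.7% were above 0. The fast genes were spread more widely, with an SD across genes of 0.59 and a range from -0.24 to 1.71, against an SD of 0.27 and a range from -0.37 to 0.59 for the slow genes. The ranges overlapped, and 5 fast genes (Tnnt3, Myh2, Myl1, Tnnc2 and Myoz1) were below 0. The difference of the medians was 0.055 after quantile normalization and 0.11 with the brightness trend removed. It was 0.58 without probe sets whose names carry the mark _a, _s or _x, where the slow median was -0.20. Without Tpm1, Tpm3 and Atp2a2, which cells outside muscle also make, it was 0.27.

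Pairs of isoforms from the same protein family gave the comparison within a family. Both members were measured in 10 families, and the fast isoform had the higher ratio in 8. SERCA pumps were furthest apart, with Atp2a1 above Atp2a2 by 1.90 on the log2 scale, a 3.74-fold difference of ratios. Tropomyosin followed at 1.34, which rests on the brightest probe set of Tpm1: of 8 combinations of its probe sets with those of Tpm3, 5 had Tpm1 above, from -0.61 to 2.07. Troponin I came next at 0.63, with all 3 probe sets of Tnni2 above Tnni1. The 5 families calsequestrin, essential light chain, myosin heavy chain, regulatory light chain and myozenin lay between 0.21 and 0.28. The heavy chain pair is Myh4 with Myh7; Myh1 lay above Myh7 by 0.20, while for Myh2, also a fast chain, the difference was -0.35. In the essential light chain, 2 of 3 combinations of probe sets had the fast isoform above, from -0.17 to 0.48. Troponin T at -0.18 and troponin C at -0.64 went the other way, with the slow isoform above. Of the 10 differences, 4 were beyond the SD of 0.44 by which probe sets of a gene disagree: SERCA, tropomyosin and troponin I with the fast isoform above, and troponin C with the slow one above. Against the SD of 0.64 among the muscle genes 3 were beyond, without troponin I (0.63) and with troponin C only just (-0.64). The count of families with the fast isoform above was 6 of 10 with the brightness trend removed, 5 of 10 after quantile normalization and 4 of 6 without marked probe sets.

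**Figure D3:**
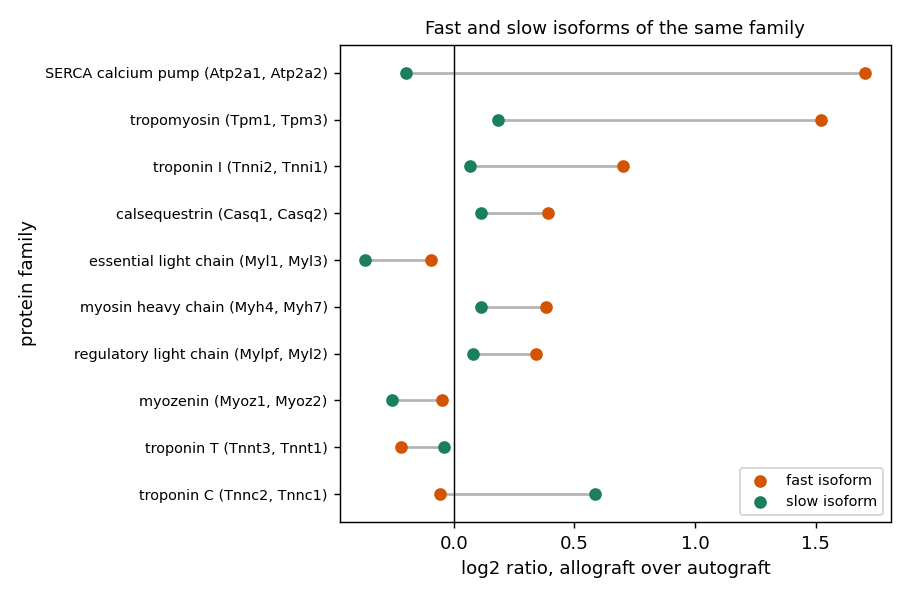
Log2 ratio of allograft over autograft for the fast and the slow isoform of 10 protein families, joined by a line and ordered by the difference. The fast isoform lies to the right in 8 families, most in the SERCA pumps, and to the left in troponin T and troponin C.

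The brightness of a probe set moved with its ratio. Of the 47 muscle genes, 23 had a mean intensity of 4000 or more, and so had 467 of all 7830 genes. In that class the median ratio was 0.31 for the 23 muscle genes and 0.21 for the 444 other genes, and 60.9% of the muscle genes and 75.9% of the others were above 0. Between 2000 and 4000 the medians were 0.19 for 13 muscle genes and -0.0030 for 656 others. Between 1000 and 2000 they were 0.10 for 7 muscle genes and -0.061 for 1280 others, and below 1000 they were -0.049 for 4 muscle genes and -0.11 for 5403 others. All 4 classes thus had the muscle median above that of other genes, by 0.062 to 0.19, while in the class of 4000 or more, and in that below 1000 (1 of 4 muscle genes, 35.8% of others), a smaller share of the muscle genes than of the others was above 0. The class of 4000 or more held 7 fast genes and 0 slow ones. Those 7 had a median of 0.31, against 0.21 for other genes of that class. Only 4 of the 7 were above 0 (57.1%), against 75.9% of the others. Fast and slow genes both occurred in the middle classes. Between 1000 and 2000 the median was 0.81 for 2 fast genes, Atp2a1 and Myl1, which lie on either side of 0, and 0.11 for 3 slow genes. Between 2000 and 4000 the median was 0.59 for 4 fast genes (Tpm1, Tnni2, Pvalb and Mylpf) and 0.070 for 7 slow genes. With the brightness trend removed the median over the muscle genes was 0.092, against -0.010 over all genes, and 30 of 47 were above 0 (63.8%), against 48.8% of all genes.

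**Figure D4:**
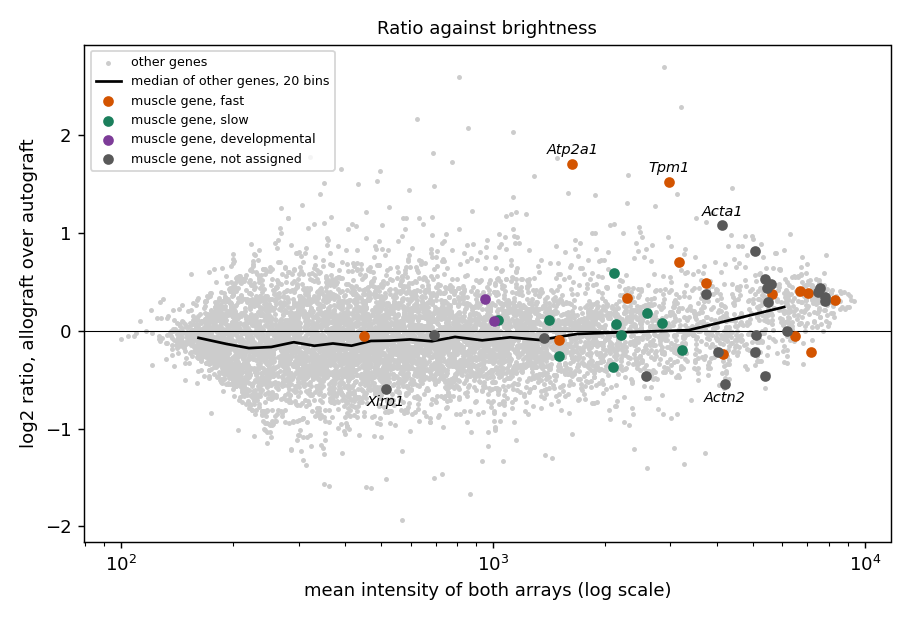
Log2 ratio of allograft over autograft against the mean intensity of both arrays (log scale) for the muscle genes, coloured by fibre type, and for all other genes that exceeded the floor on 1 or both arrays, with the median of the others in 20 bins of equal size. The line climbs at the bright end, where many muscle genes lie; Atp2a1, Tpm1 and Acta1 lie far above it and Xirp1 and Actn2 below it.

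A wider list of muscle genes had a median close to that over all genes (-0.076), but below that of genes of like brightness. Of 87 further genes listed, 59 were on the array and 55 exceeded the floor on 1 or both arrays, with a median ratio of -0.082 and 23 above 0 (41.8%, against 40.4% of all genes). The highest were Cox6a2, the muscle form of a cytochrome oxidase subunit, at 0.50 (7209.5 in allograft, 5104 in autograft), Tmod1, which caps thin filaments, at 0.50 (1919 in allograft, 1357 in autograft), the small heat shock gene Hspb3 at 0.44 (1016 in allograft, 747 in autograft) and Pdlim5, a Z disc adaptor, at 0.37 (2480.4 in allograft, 1920.2 in autograft). The lowest was Smyd1, a methyltransferase needed to build myofibrils, below the floor in the allograft sample (174.5) and at 453 in the autograft sample, which makes it lower in the allograft by at least 2.59-fold. It was followed by Fabp3, the fatty acid carrier of muscle and heart, at -0.85 (2230 in allograft, 4024 in autograft), the stretch-responsive Ankrd2 at -0.79 (984 in allograft, 1705 in autograft) and Itgb1bp2, melusin, at -0.60 (1597 in allograft, 2418 in autograft). By brightness the medians of the wider list and of all genes outside the muscle genes described above were 0.11 (11 genes) and 0.21 at 4000 or more, -0.14 (13) and -0.0030 between 2000 and 4000, -0.11 (11) and -0.061 between 1000 and 2000, and -0.13 (20) and -0.11 below 1000.

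Myogenic factors and genes of the nerve contact had a median of -0.17 over the 12 genes with a value above the floor. Of these 5 were above 0 (41.7%, close to the 40.4% of all genes). The list is dim, with a median mean intensity of 587. Genes below 1000 outside the muscle genes had a median of -0.11, with 35.8% above 0. The other genes of the 20 on the array were below the floor on both arrays. Myod1, the lowest, stood at -0.63 (199.8 in allograft, 309 in autograft) and Myog at -0.29 (191 in allograft, 234 in autograft), both close to the floor. Among the 5 above 0, Mymk was highest at 0.35 (338 in allograft, 265 in autograft). The bright Mef2c, also above 0, stood at 0.070 (4755 in allograft, 4531 in autograft). The list of smooth muscle and pericyte genes had a median of -0.14 over 9 genes, with 2 above 0, and summed to 19445 in the allograft sample and 21058 in the autograft sample over its 14 genes on the array. The 11 heart genes summed to 9019 in the allograft sample and 8607 in the autograft sample. Most of both sums came from Actc1 (7045 in allograft, 6791 in autograft), which developing skeletal muscle also uses. The heart genes other than Actc1 and Tnnt2 were below the floor on both arrays. Erythroid and adipocyte genes had higher median ratios than the muscle genes. Above 0 were 17 of 17 erythroid genes, against 40.4% of all genes (median 0.79, summed intensity 31039.6 in allograft, 17312 in autograft). One of them, Epb42, exceeded the floor only in the allograft sample (303 in allograft, 96.5 in autograft), which fixes its sign. Of the 8 adipocyte genes on the array 5 exceeded the floor, and all 5 were above 0 (median 1.15). The adipocyte genes Lep, Cidec and Pparg were below the floor on both arrays. Summed intensity of the 8 was 26105 in the allograft sample and 15940.2 in the autograft sample. Osteoblast genes lay far apart, with a median of -0.38 over 10 genes, 4 above 0, and sums of 30411 in the allograft sample and 24827 in the autograft sample over the 11 on the array: Col1a1 (2.70), Sparc (1.46) and Col1a2 (1.11) were over 2-fold higher, and Omd (-1.27) and Alpl (-1.25) over 2-fold lower. A 3′ over 5′ ratio of the beta-actin control, a sign of RNA breakdown where it is high, was at 1.77 in the allograft sample and at 1.19 in the autograft sample. That of the Gapdh control was 0.19 in the allograft sample and 0.035 in the autograft sample, below 1 on both arrays, with 3′ intensities of 1577 in the allograft sample and 233 in the autograft sample. The part of these tissues, of RNA quality and of brightness in the muscle values was not tested.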

How the data were processed

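Total RNA from an allograft and an autograft sample of mouse femur was read on 1 array each. The deposited intensities, on a linear scale, had 2% trimmed means of 500.2 and 500.1, so the authors had scaled them; the sources used here name no software, background correction or build. They were used as deposited, without 64 control probe sets. Of the others 20380 had 1 gene symbol in GEO's platform annotation, 691 had several and 1555 had none listed. Entrez identifiers matched the RefSeq table (GRCm38.p6) for 20351 and failed for 29.

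The members and lists were chosen with earlier results of these data known. Every member may be named; of other lists, the 4 highest and 4 lowest ratios and a few defining genes. Promoters and motif searches were added after the values were seen. Alternatives changed the floor, the scaling, the probe set of a gene, the threshold and the isoforms. The counting step was tested on simulated data. Lowess (span 0.4) came from statsmodels 0.14.6; tables were handled with pandas 2.3.3 and numpy 2.4.6, trimmed means with scipy 1.17.1 and plots with matplotlib 3.10.9, under Python 3.11.15.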

Additional observations from a re-analysis of the deposited data

Results flagged for a closer look

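Myhas, listed in RefSeq as a long non-coding RNA between Myh1 and Myh4 in the myosin heavy chain cluster of chromosome 11, is not among the muscle genes described, and its probe set had a log2 ratio of 2.17 (1019 in allograft, 226 in autograft, 4.50-fold), higher in the allograft sample. It was picked up as a signal outside the genes compared. Its neighbours Myh1 and Myh4 stood at 0.31 and 0.38. Whether its probe set reads the neighbouring myosin transcripts was not tested, and with 1 array for each graft type the value has no replicate check.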

How the results depend on the processing

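The median ratio of the muscle genes stayed above 0 in 10 of 10 alternatives, between 0.048 and 0.18, and that of the wider list stayed below 0 in 9 of 9, between -0.11 and -0.0080. Quantile normalization gave medians of 0.10 for fast isoforms and 0.049 for slow ones, a difference of 0.055, and 5 families with the fast isoform above. Without probe sets whose names carry a mark, the slow median was -0.20, the difference of medians 0.58, the fast isoform was above in 4 of the 6 families left, Tpm1 stood at -0.42 and 1 gene was 2-fold higher. The cause was not tested. A threshold of 1.5-fold counted 6 muscle genes higher and 1 lower, and one of 4-fold counted 0 higher, against 0.0766% of all genes. Single muscle genes moved by 0.2 or more in 19 of 47 cases after quantile normalization and in 10 of 47 with the brightness trend removed. The other alternatives gave 2 or 3 genes at 2-fold higher and 0 lower. Over all genes the 2-fold counts were 146 higher and 240 lower where the floor was the 25th percentile, 34 and 16 where it was the 75th, 236 and 428 with log2 of the intensity plus 16, 77 and 38 after quantile normalization, 86 and 33 with the trend removed and 68 and 59 as deposited. No paired analysis was possible because each graft type has 1 array and the labels give no replicate numbers. Signal near or under the floor limits the values of Jph2, Myod1 and Myog.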
